A study of Mus musculus with 25 samples.

Results

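The mir-101 family of mouse blood is described here through its hairpins mmu-mir-101a and mmu-mir-101b, written mir-101a and mir-101b from here on, which are 2 of the 1193 microRNA precursors in a table of small RNA counts. Their rows were taken by name over all 25 libraries, and both passed the filter on low counts. The family was chosen by values of the same table, with the slope of mir-101a over age already known. Its levels and changes with age are therefore given as descriptions, and no p-value is attached to them. The libraries came from the blood of C57BL/6 mice, a widely used inbred strain, all of them male. There were 5 animals, each with a number and a library of its own, at each of 2, 9, 15, 24 and 30 months of age. The labels name no treatment and no genetic alteration, and do not say how blood was drawn or whether cells were separated.

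A microRNA is cut from a hairpin transcript and guides the silencing of messenger RNAs that pair with its seed, the stretch from base 2 to base 8. mir-101 is best known for repressing Ezh2, the Polycomb enzyme that places a silencing methyl mark on histone H3, and it is low in many human tumours. Ezh2 is needed for the development of lymphocytes.

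Sequences of the family and of its closest seed relative are shown because they decide how far the hairpins can be told apart. They are mature arms from RefSeq on GRCm38.p6, in which both members were found, written 5′ to 3′ with bases 2 to 8 in capitals.
miR-101a-3p: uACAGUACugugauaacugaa
miR-101b-3p: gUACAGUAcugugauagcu
miR-101a-5p: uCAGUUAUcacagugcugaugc
miR-101b-5p: uCGGUUAUcaugguaccgaugcu
miR-101c: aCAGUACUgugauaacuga
miR-144-3p: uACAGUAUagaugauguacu

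The 3p arms of both members carry the same core. miR-101a-3p placed on the mir-101b hairpin had 1 mismatch, A16G, counted from 1 at the 5′ end of miR-101a-3p. miR-101b-3p as annotated starts 1 base further upstream, so the annotated seeds are ACAGUAC and UACAGUA, each found in 1 of 1738 mature arms. The hairpins share an unbroken run of 20 bases. The 5p arms differed at 5 of 22 bases, 1 of them in the seed.

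The mir-101a hairpin lies on chromosome 4, from 101346945 to 101347027 on the minus strand of GRCm38, in exon 2 of the long noncoding RNA E130102H24Rik of the GENCODE annotation. The mir-101b hairpin lies on chromosome 19, from 29135279 to 29135375 on the plus strand, in an intron of Rcl1, whose protein takes part in ribosomal RNA processing. The family is thus made from separate transcripts on different chromosomes. Another hairpin, mir-101c on chromosome 9, has a mature sequence that lies wholly within miR-101a-3p. It held 28 counts over all 25 libraries, with at most 4 in a library and 0 in 12 of them, so it did not pass the filter and is not among the members.

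Both hairpins were moderately abundant. In CPM, the count of a hairpin relative to library size after scaling by trimmed mean of M-values (TMM), mir-101a averaged 271.3 over the 25 libraries and ranked 66 among the tested precursors, and mir-101b averaged 245.5 and ranked 70. Together they took between 0.00644% and 0.102% of a library's counts. The counts themselves ran from 400 to 11703 for mir-101a and from 371 to 9869 for mir-101b, in libraries of 4884058 to 24253236 counts, so counting error is small beside the spread between animals. Levels are per hairpin and are not divided by length.

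mir-101a had 275.4, 255.2, 598.5, 378.5 and 390.5 CPM in the 5 libraries of 2 months. At 9 months it had 367.6, 355.1, 214.6, 302.0 and 269.2 CPM, and at 15 months 376.4, 354.6, 501.0, 254.9 and 116.0 CPM. At 24 months it had 230.6, 37.3, 341.6, 140.0 and 250.9 CPM, and at 30 months 292.1, 36.8, 150.0, 102.7 and 189.9 CPM. The highest library was one of the youngest, and the lowest belonged to the 24 and 30 months groups, where replicate 2 stood far below the others. 4 of 5 libraries at 30 months and 4 of 5 at 24 months lay below the lowest library of 2 months, against 2 of 5 at 15 months and 1 of 5 at 9 months, and the ranges of every older age still overlapped that of 2 months.

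mir-101b followed the same course. It had 185.9, 196.3, 507.8, 361.4 and 328.3 CPM at 2 months and 354.6, 337.9, 206.5, 290.2 and 208.6 CPM at 9 months. At 15 months it had 357.7, 306.5, 422.5, 236.7 and 104.5 CPM, at 24 months 247.6, 31.9, 347.2, 127.1 and 249.2 CPM, and at 30 months 271.3, 34.2, 121.3, 93.5 and 208.3 CPM. The same animals were high and low as for mir-101a, with replicate 3 of 2 months at the top and replicates 2 of 24 and 30 months at the bottom. 3 of 5 libraries at 30 months and 2 of 5 at 24 months lay below the lowest library of 2 months.

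**Figure D1:**
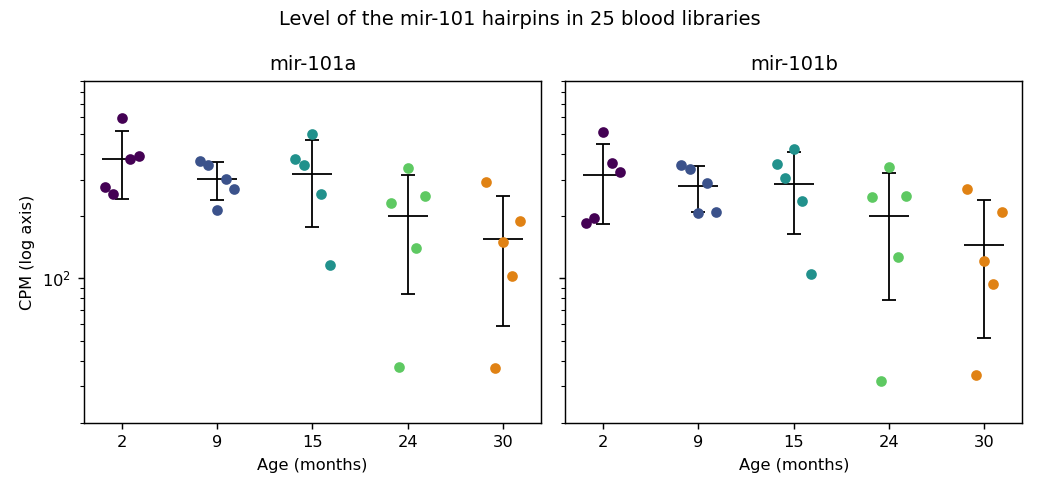
CPM of mir-101a (left) and mir-101b (right) on a log axis by age in months. Points are the 25 libraries, horizontal lines the mean of each age and bars its SD (n = 5). Replicate 2 of 24 months and replicate 2 of 30 months are the lowest points in both panels, at 37.3 and 36.8 CPM for mir-101a.

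By mean level, the ages ran in the order 2, 15, 9, 24 and 30 months for both hairpins. The mean of mir-101a was 379.6 ± 136 CPM for 2 months, 301.7 ± 62.9 CPM for 9 months, 320.6 ± 144 CPM for 15 months, 200.1 ± 116 CPM for 24 months and 154.3 ± 95.8 CPM for 30 months (± SD over 5 libraries). For mir-101b the means at these ages were 315.9 ± 132, 279.5 ± 69.9, 285.6 ± 122, 200.6 ± 122 and 145.7 ± 94.2 CPM (± SD over 5 libraries). Of the neighbours in this order, 9 and 24 months differed by more than their pooled SD for mir-101a, by 101.6 CPM against an SD of 93.2. All other neighbouring ages, and all of them for mir-101b, differed by less than their spread. The coefficient of variation of mir-101a was 35.9% at 2 months, 20.9% at 9 months, 44.9% at 15 months, 57.9% at 24 months and 62.1% at 30 months. Single libraries set much of it, since it was 21.4% at 2 months without replicate 3, 27.2% at 15 months without replicate 5, 34.4% at 24 months without replicate 2 and 43.9% at 30 months without replicate 2. In a mixture of blood cells, fewer cells that carry a microRNA and less of it per cell cannot be told apart.

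Fitted with edgeR over all precursors, mir-101a stood at 40.7% of its 2-month level at 30 months, a log2 change of −1.30 (SE 0.47), and at 52.7% at 24 months (−0.92, SE 0.46). For mir-101b the fitted level was 46.1% at 30 months (log2 change −1.12, SE 0.49) and 63.5% at 24 months (−0.65, SE 0.49). At 15 months the log2 changes were −0.24 (SE 0.46) for mir-101a and −0.15 (SE 0.49) for mir-101b, and at 9 months −0.33 (SE 0.46) and −0.18 (SE 0.49). The differences of 9 and 15 months were smaller than their errors. The median precursor moved by −0.04 at 30 months.

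**Figure D2:**
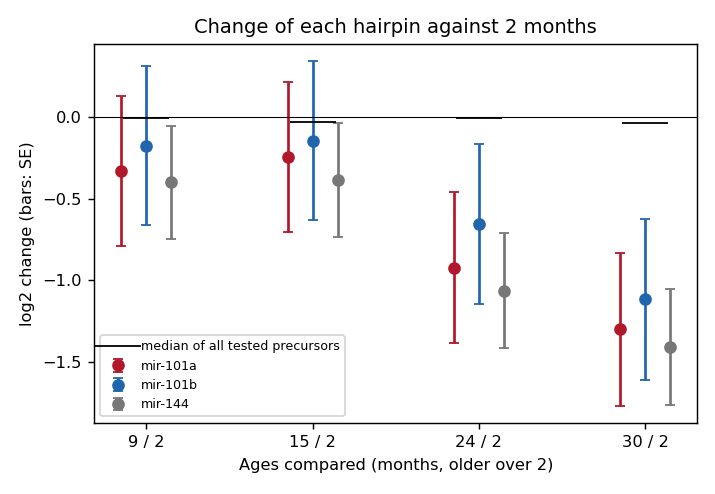
Log2 change of each hairpin against 2 months, with 9, 15, 24 and 30 months along the x axis and bars for the SE. mir-101a and mir-101b are drawn beside mir-144, which shares bases 2 to 7 of its 3p arm with mir-101a, and short lines mark the median of all tested precursors. The changes of the members lie between −1.30 and −0.65 at 30 and 24 months, and less than an SE from 0 at 15 and 9 months.

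At an edgeR adjusted p under 0.05 over all tested precursors, neither member was called in any comparison with 2 months. At 30 months 14.2% of all tested precursors were called, 9.17% higher and 5.03% lower, and at 24 months 12.1%, with 7.69% higher and 4.44% lower. Scaled by library totals, the split was 51 higher and 6 lower at 30 months, against 31 and 17 with TMM, and 69 and 3 at 24 months, against 26 and 15 with TMM and 21 and 3 with upper quartile factors. At 15 months 1.48% were called, 0.592% higher and 0.888% lower, and at 9 months 2.07%, with 1.18% higher and 0.888% lower. In the linear trend over the 5 ages, 1 of the 2 members, mir-101a, was called lower, where 19.8% of all precursors were called, 10.7% higher and 9.17% lower. That split, 36 higher and 31 lower with TMM, became 80 higher and 9 lower under library totals, and upper quartile scaling gave 38 higher and 18 lower. The slopes per 10 months were −0.45 log2 units (SE 0.14) for mir-101a and −0.38 (SE 0.15) for mir-101b, against a median of −0.02. Since the family was chosen with this trend known, nothing is read from these counts.

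Single libraries carried part of these changes. Without replicate 2 of 24 months the log2 change at 24 months was −0.58 for mir-101a and −0.31 for mir-101b, and without replicate 2 of 30 months that at 30 months was −0.99 and −0.81. With both libraries left out, a choice made after seeing the data, the trend slopes were −0.32 for mir-101a and −0.25 for mir-101b. mir-101a was still called, from which nothing is read, since the family was chosen with its trend known. The call of mir-101a ended without replicate 3 of 2 months (slope −0.39), replicate 2 of 30 months (−0.37) or replicate 4 of 30 months (−0.40). It also ended with library totals (−0.34), with no filter on low counts (−0.46) and without the whole 2-month group (−0.49). Sequencing lane, named in the column headers, was spread unevenly over the ages, and no lane held more than 2 libraries of an age, too few for values within a lane. With lane in the fit the slopes were −0.47 and −0.41. Library totals ran from 5746508 to 13070018 counts at 30 months and from 16209205 to 22245787 counts at 2 months, and log2 total counts and mir-101a correlated at r = 0.456 over 25 libraries and at 0.134 after age means were removed. With every library thinned to the smallest total the slopes were −0.41 and −0.36.

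The ratio of the hairpins within a library does not depend on scaling. mir-101a had more counts than mir-101b in 22 of 25 libraries, and the log2 ratio averaged 0.15, with a range from −0.13 to 0.57. The ratio was 0.57, 0.38, 0.24, 0.07 and 0.25 in the libraries of 2 months and 0.05, 0.07, 0.06, 0.06 and 0.37 in those of 9 months. It was 0.07, 0.21, 0.25, 0.11 and 0.15 at 15 months, −0.10, 0.23, −0.02, 0.14 and 0.01 at 24 months, and 0.11, 0.11, 0.31, 0.14 and −0.13 at 30 months. The mean log2 ratio by age was 0.30 ± 0.19, 0.12 ± 0.14, 0.16 ± 0.07, 0.05 ± 0.13 and 0.10 ± 0.16 in the order of the ages (± SD over 5 libraries). The 2-month mean was the highest and the ranges of all ages overlapped. The counting error of a library's log2 ratio was 0.02 to 0.10, and the SD of the ratio over libraries of one age was 0.07 to 0.19.

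**Figure D3:**
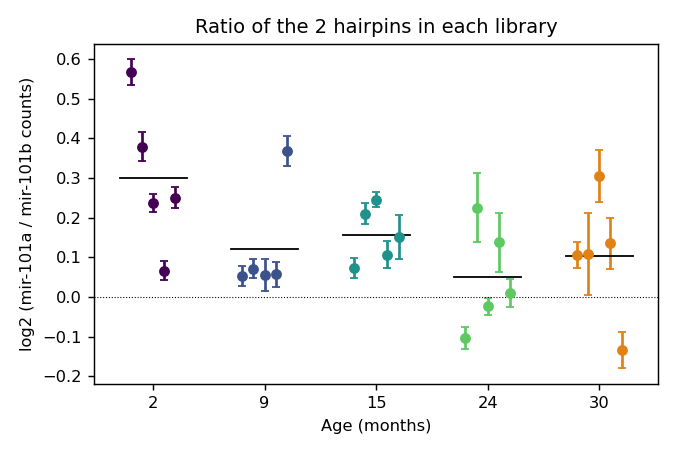
Log2 ratio of mir-101a to mir-101b counts in each library by age in months. Bars are the counting SE of a library's ratio and horizontal lines the mean of each age. Ratios lie between −0.13 and 0.57, with replicate 5 of 9 months apart from the other 4 of its age.

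Across libraries the members moved nearly as one. Their log2 CPM correlated at Pearson r = 0.988 and Spearman rho = 0.941 over 25 libraries, at 0.990 after age means were removed and at 0.969 without replicates 2 of 24 and 30 months. These libraries share depth and scaling between the rows. The mature 3p arms differ by 1 base within the shared stretch, and no source used here says how reads that fit both hairpins were assigned. Part of the counts may therefore have been exchanged between the rows. With the counts of both rows summed into 1, a choice made after seeing the data, the slope was −0.43 log2 units per 10 months and the log2 change at 30 months was −1.25.

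The precursors most like the family over the libraries were the same 5 for both members. For mir-101a these were mir-20a of the mir-17-92 cluster at r = 0.973 (rho 0.916), mir-144 of red cells at 0.961 (rho 0.937), mir-141 of the epithelial mir-200 family at 0.958 (rho 0.878), let-7i at 0.939 (rho 0.891) and mir-301a at 0.904 (rho 0.848), each over 25 libraries that share depth and scaling between the rows. For mir-101b the first was again mir-20a, at 0.983, and the last mir-144, at 0.933. With age means removed the r values for mir-101a were 0.963 for mir-20a, 0.957 for mir-144, 0.953 for mir-141, 0.929 for let-7i and 0.948 for mir-301a. Without the 2 lowest libraries they ranged from 0.789 for mir-301a to 0.937 for mir-144. Over all other tested precursors the median r with mir-101a was −0.05, with 8 above 0.9, 57 above 0.5 and 38 below −0.5.

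These 5 also had low levels in the same libraries. In replicate 2 of 24 months mir-101a stood at 15.5% of the median of the other 4 libraries of its age, mir-20a at 14.9%, mir-141 at 16.2%, mir-301a at 21.2%, let-7i at 25.7% and mir-144 at 33.9%. In replicate 2 of 30 months mir-101a stood at 21.7%, mir-20a at 21.7%, mir-141 at 14.2%, mir-301a at 15.3%, let-7i at 28.9% and mir-144 at 30.8%. Hairpins cut from the same stretch of the genome as these did not all share the drop. mir-451a, the main red cell microRNA, starts 165 bases from mir-144 and stood at 109% and 101% in the same libraries. mir-92a-1, 270 bases from mir-20a, stood at 133% and 107%, and mir-17, 486 bases from mir-20a, at 45.2% and 40.0%.

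Over all 25 libraries the neighbours of mir-20a ranged from near mir-101a to opposite it. Pearson r with mir-101a was 0.839 for mir-17, 0.704 for mir-19a, 0.530 for mir-18a, −0.132 for mir-19b-1 and −0.448 for mir-92a-1. Without the 2 lowest libraries these were 0.650, 0.341, 0.298, −0.226 and −0.274. mir-19b-1 averaged 266 CPM and mir-19b-2, which is not among these neighbours, 267.4 CPM. How reads that fit more than 1 hairpin were assigned is not known, so a row may not report its own place in the genome alone. Next to mir-144, mir-451a had r = 0.169, and next to mir-141, mir-200c had r = 0.709. mir-451b, which overlaps mir-451a, had r = 0.170. The neighbours were chosen after the values of the 5 precursors were seen, as all tested hairpins within 10 kb.

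**Figure D4:**
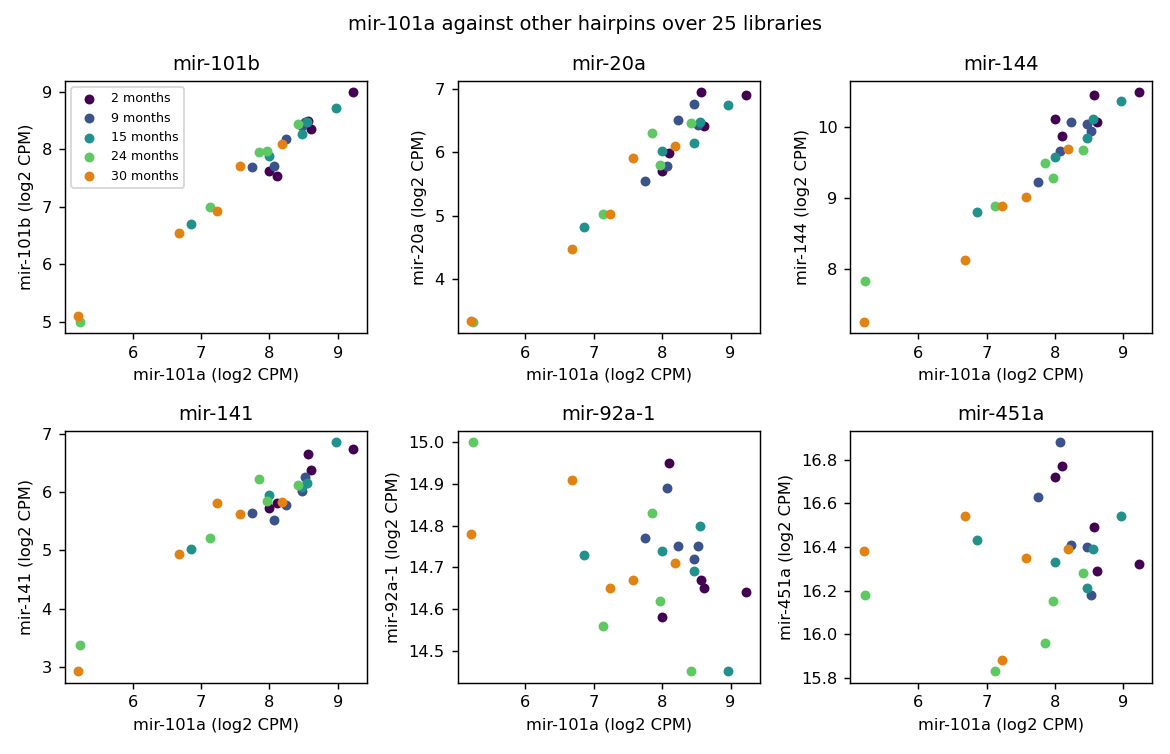
Log2 CPM of mir-101a (x axis) against 6 other hairpins (y axes) in 25 libraries, with points coloured by age. mir-101b, mir-20a, mir-144 and mir-141 rise with mir-101a along the whole range, with r from 0.958 to 0.988, while mir-92a-1 (r = −0.448) and mir-451a (r = 0.169), which lie beside mir-20a and mir-144 in the genome, do not.

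Base composition moved with this likeness in part. The mature arms of mir-101a average 39.4% GC and those of mir-101b 45.0%, and miR-101a-3p itself, printed above, has 33.3%. Among 100 other precursors of at least 50 CPM with a mature sequence, r with mir-101a and GC content had a Spearman rho of −0.417 across precursors, which are not independent replicates. Of 4 bins of nearly equal size by GC, the richest, from 53.5% to 69.6%, had a median r of −0.287 and 2 of 25 precursors with r above 0.5. The poorest, from 23.8% to 41.3%, had a median r of 0.261 and 11 of 25 above 0.5. The bins between did not follow in order, with a median r of 0.230 from 41.7% to 47.7% (11 of 26 above 0.5) and of 0.373, the highest of the 4, from 47.8% to 53.5% (7 of 24 above 0.5). mir-451a, at 36.4% GC, did not follow mir-101a. With a GC-dependent offset for each library the log2 change of mir-101a at 30 months was −1.18 (SE 0.41), against −1.30 (SE 0.47) without it. It then passed the threshold, from which nothing is read, since the family was chosen with its trend known. That of mir-101b was −1.09 (SE 0.47) with the offset and −1.12 (SE 0.49) without it. Whether base composition has a part in the levels of mir-101 was not tested.

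**Figure D5:**
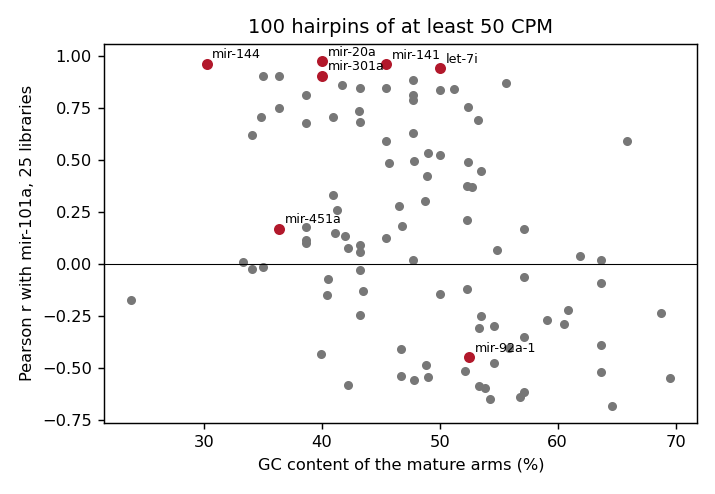
GC content of the mature arms in percent (x axis) against Pearson r with mir-101a over 25 libraries (y axis) for 100 hairpins of at least 50 CPM. Points with r above 0.9 have between 30.2% (mir-144) and 50% GC (let-7i), while mir-451a, at 36.4% GC, has r = 0.169.

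Seed relatives of the family did not all behave alike. Bases 2 to 7 of miR-101a-3p, ACAGUA, stand at the same place in 2 of 1738 mature arms, the other being miR-144-3p. mir-144, needed in maturing red cells, had means of 1193, 903.9, 914.2, 571.5 and 449.9 CPM at 2, 9, 15, 24 and 30 months. Its range was 152.5 to 828.3 CPM at 30 months and 227.5 to 815.5 CPM at 24 months, and all 5 libraries of either age lay below the range of 2 months, from 943.4 to 1442 CPM. Its log2 change at 30 months was −1.41 (SE 0.35, edgeR adjusted p = 0.0101) and its slope −0.49 per 10 months (SE 0.11, edgeR adjusted p = 0.00180). Bases 2 to 7 of miR-101b-3p as annotated occur in 1 other arm, miR-582-5p. mir-582 was rare, with 27 to 130 counts in a library. It averaged 4.73 CPM for 30 months, with an SD of 1.56, and 3.19 CPM for 2 months, with an SD of 1.24 over 5 libraries. Across the 25 libraries it ran against the family, at r = −0.673 with mir-101a and −0.650 with mir-101b. Neither its log2 change at 30 months, 0.58 (SE 0.30), nor its slope, 0.20 per 10 months (SE 0.09), was called.

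Other microRNAs known to repress Ezh2, chosen with earlier results of these data known, were compared with mir-101. Of 21 hairpins on that list, from the let-7, mir-26, mir-138 and mir-124 families and mir-214, 18 were tested. In the trend 7 of the 18 (38.9%) fell and 0 rose by the edgeR test, where 9.17% of all precursors fell and 10.7% rose. The 7 were let-7a-1, let-7a-2, let-7f-1, let-7f-2, let-7g and mir-98, all of the let-7 family, and mir-26b. Both copies of let-7a and of let-7f are thus included, whose counts are nearly equal, and the 7 come to 5 with copies counted once. The called hairpins are therefore mostly of a single family. The median slope of the list was −0.08 per 10 months, against −0.02 over all precursors. At 30 against 2 months 5 (27.8%) fell and 0 rose, where 5.03% of all precursors fell, with a median log2 change of −0.40, against −0.04 over all precursors. The 5 were let-7f-1, let-7f-2, let-7g, mir-98 and mir-26b, and come to 4 with copies counted once. let-7i, on this list, is also among the 5 precursors most like mir-101. The lowest adjusted p in the trend were those of mir-98, at −0.44 (SE 0.10, edgeR adjusted p = 0.00346), let-7f-1, at −0.46 (SE 0.11, edgeR adjusted p = 0.00434), and let-7f-2, at −0.46 (SE 0.11, edgeR adjusted p = 0.00457). let-7f-1 and let-7f-2 averaged 1146 and 1246 CPM, and how reads that fit both were assigned is not known. Within the mir-26 family, mir-26b was called lower, at −0.30 (SE 0.10, edgeR adjusted p = 0.0305). mir-26a-1, whose slope was 0.02 (SE 0.05), was not called, and neither was mir-26a-2, at 0.02 (SE 0.05). Scaled by library totals, 3 of the 18 fell in the trend, where 9 of all tested precursors fell and 80 rose. The median slope of the list was then 0.03, on the other side of 0, against a higher median of 0.09 over all precursors. With that scaling 1 of the 18 fell at 30 months, where 6 of all tested precursors fell and 51 rose. The median log2 change of the list was −0.17, against 0.20 over all precursors. Under the same scaling the slopes of mir-101a and mir-101b were −0.34 and −0.27, and neither was called.

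Markers of cell types were set beside mir-101 as whole lists, with no marker of a blood cell list at 0 in every library. All 7 red cell markers were tested, and their summed level ranged from 364000 to 510400 CPM at 30 months and from 477200 to 573300 CPM at 2 months, mostly from mir-486a and mir-451a. The sum had r = −0.019 with mir-101a over 25 libraries, while its members ranged from −0.448 for mir-92a-1 to 0.809 for mir-16-1 and mir-16-2 and 0.961 for mir-144, 4 of 7 above 0. mir-16-1 and mir-16-2 had nearly equal levels, averaging 14050 and 14030 CPM, and are not separate measures. The same holds for mir-181a-1 and mir-181a-2 (691 and 694.6 CPM) and for mir-133a-1 and mir-133a-2 (25.2 and 25.4 CPM) in the lists below. The 7 neutrophil and monocyte markers summed to 10990 to 16800 CPM at 30 months and 12080 to 15340 CPM at 2 months, mostly from mir-142a (r = −0.0227) and mir-21a (r = 0.785). That sum had r = 0.583, but 6 of the 7 members had r below 0, among them mir-223 at −0.581 and mir-23a at −0.585. The 8 lymphocyte markers summed to 1254 to 2082 CPM at 30 months and 1627 to 2248 CPM at 2 months (r = 0.275 for the sum and −0.242 to 0.507 for the members). The 6 platelet or endothelial markers summed to 337.9 to 617.5 CPM at 30 months and 339.6 to 768.2 CPM at 2 months (r = 0.667 for the sum and −0.513 to 0.735 for the members). Of the markers from outside blood, the liver or gut list, 3 of 4 tested, had 3979 to 6067 CPM at 30 months and 3174 to 4313 CPM at 2 months (r = −0.478 for the sum and −0.483 to −0.119 for the members). The muscle list, 3 of 6 tested and 1 at 0 in every library, had 10.01 to 43.9 CPM at 30 months and 25.8 to 235.3 CPM at 2 months (r = −0.039 for the sum and −0.064 to 0.629 for the members). In the edgeR trend, where 10.7% of all precursors rose and 9.17% fell, 1 of 7 red cell markers (14.3%) fell, which is near that share. Of the neutrophil and monocyte markers 5 of 7 (71.4%) rose, namely mir-223, mir-23a, mir-27a, mir-24-2 and mir-146a. mir-142a and mir-21a, which make up most of that sum, were not called, with slopes of 0.02 and −0.03. The sum averaged 13770 CPM at 2 months and 14290 CPM at 30 months. Of 6 platelet or endothelial markers 1 (16.7%) rose and 3 (50%) fell in the trend. Those that fell were rare, namely mir-126a (9.22 CPM on average), mir-199a-1 (0.77 CPM) and mir-199a-2 (0.72 CPM). mir-199a-1 and mir-199a-2 had nearly equal levels, close to the floor of counting, and are not separate measures. Most of the sum came from mir-221 (378.9 CPM), which was not called, and mir-222 (132.1 CPM), which rose. None of the 8 lymphocyte, 3 liver or gut and 3 muscle markers tested was called in the trend. At 24 against 2 months 2 of 7 red cell markers (28.6%), mir-144 and mir-451a, fell, where 4.44% of all precursors fell. At 30 months 1 (14.3%) fell, where 5.03% did. The red cell sum averaged 516700 CPM at 2 months, 397300 CPM at 24 months and 431900 CPM at 30 months. It lay below the lowest 2-month library in 4 of 5 libraries at 24 and at 30 months, against 3 of 5 at 9 and at 15 months. These sums, and the call of mir-451a, rest on TMM scaling, in which a larger factor lowers CPM. The factors ran from 0.8033 to 0.9609 at 2 months, from 0.9296 to 1.29 at 24 months and from 0.9067 to 1.228 at 30 months. The red cell markers were not fitted or summed under library totals. mir-144, mir-451a and mir-92a-1 belong to the red cell list. The part of any cell type in the levels of mir-101 was not tested.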

How the data were processed

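Blood RNA was turned into libraries with the TruSeq kit for small RNA, as the labels' protocols state. The authors deposited 1 table of raw counts per microRNA hairpin, in which the arms are not separated. Per the submitters' processing notes, SAMtools 1.3.1-9, Trimmomatic 0.36 and bcl2fastq 1.8.4 were used, in roles left unstated. No source used here names an aligner, counter, microRNA release, genome build or strand setting.

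Of 1193 precursors, 328 were at 0 in every library, and the default edgeR filter by age kept 338. Groups follow the labelled age, with 5 libraries each. Between libraries of one age, chi-square divided by its degrees of freedom was at least 65.57, so none was a copy. Index sequences in the headers nearly follow age and cannot be told apart from it. Totals ran from 4884058 to 24253236 counts, and a floor of 3 counts was 0.118 to 0.528 CPM, covering counting error only.

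All 25 libraries entered the quasi-likelihood fits of edgeR 4.0.16 (R 4.3.3), with a mean per age or a slope over age, TMM factors, robust dispersions and Benjamini-Hochberg adjustment over 338 precursors at a threshold of 0.05. SEs are the size of the log2 change divided by the root of the F statistic. Correlations used log2 CPM with a prior count of 2, and ratios a pseudocount of 0.5. Alternatives covered scaling, filters, DESeq2 1.42.0, limma 3.58.1, lane, depth, GC content (303 of 338 precursors had a mature sequence), the samples fitted and each replicate left out.

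The members and lists were chosen with earlier results of these data known. Named precursors are the members, the 5 most correlated with each, those sharing bases 2 to 7 of a mature arm, and up to 3 per direction of the Ezh2 list by adjusted p in the trend. Hairpins within 10 kb of the most correlated ones, the markers singled out and the other hairpins named from the Ezh2 list were named after their values were seen.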

Additional observations from a re-analysis of the deposited data

Results flagged for a closer look

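The log2 ratio of mir-101a to mir-101b in replicate 5 of 9 months was 0.368, where the nearest of the other 4 libraries of that age was at 0.0717. This gap was 0.938 of the whole range of the age, above Dixon's critical value of 0.710 for 5 samples. 15 sets of 5 libraries were looked at, and chance flags about 1 in 20, so 1 flag is near what chance gives. The counting error of that ratio was 0.0372. Neither the level of mir-101a nor that of mir-101b stood apart by this measure in any age.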

How the results depend on the processing

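The trend of mir-101a, known when the family was chosen, kept its direction in all 38 alternatives run and left the calls in 6. These were library totals (slope −0.34), no filter (−0.46), no 2-month group (−0.49) and 3 fits without 1 library, with slopes from −0.52 to −0.37 over all such fits. mir-101b was called in the trend with DESeq2 (−0.39), limma-voom (−0.49) and summed members (−0.43), and in none of the fits without 1 library (−0.44 to −0.29). At 30 months mir-101a was called with DESeq2 (−1.32), the GC offset (−1.18) and without replicate 1 of 30 months, the range without 1 library being −1.64 to −0.99, and mir-101b was never called (−1.45 to −0.81). At 24 months the ranges were −1.16 to −0.58 and −0.90 to −0.31. At 9 and 15 months the sign depended on single libraries. mir-101b was at 0.069 at 9 months without replicate 3 of 2 months, and at 15 months mir-101a was at 0.0057 and mir-101b at 0.12 without that library, and mir-101b at 0.096 without replicate 5 of 15 months. The lowest values without 1 library were −0.42 and −0.31 at 9 months and −0.41 and −0.27 at 15 months, and the highest for mir-101a at 9 months −0.10. The cause was not tested.

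Counts of called precursors moved more. At 30 months 48 became 15 with no filter and 30 with only the 2 ages fitted (32 to 49 without 1 library). At 24 months 41 became 72 with library totals and 24 with upper quartile factors, no filter or a 10 CPM filter (23 to 36 without 1 library, lowest without replicate 5 of 24 months). The trend's 67 became 39 with no filter, 43 with a 10 CPM filter and 9 without the 2-month group (43 to 71 without 1 library). With both lowest libraries left out, 36 precursors were called at 30 months, 33 at 24 months and 49 in the trend. At 15 months 5 became 3 with library totals, a 10 CPM filter, limma-voom or lane, and 2 with only the 2 ages fitted (3 to 4 without 1 library). At 9 months 7 became 4 with upper quartile factors or lane (3 to 7 without 1 library). Under library totals the median precursor shifted to 0.36 at 24 months and 0.20 at 30 months, and the trend's split was 80 higher and 9 lower, against 36 and 31 with TMM.

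The mean ratio of the members stayed within 0.13 to 0.16 without 1 library and was 0.15 with a pseudocount of 1. No paired analysis was possible because replicate numbers follow sample order and mark no shared animal. Libraries of 24 and 30 months with few counts limit rare precursors, not the members, which had at least 371 counts everywhere.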

Other observations

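Among the 110 precursors of at least 50 CPM, the first principal component of log2 CPM held 46.2% of the variance between libraries. The level of mir-101a correlated with it at an absolute r of 0.926 and that of mir-101b at 0.924, over 25 libraries, while age in months correlated with it at 0.528. The members are themselves among the 110.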
